A study of Rattus norvegicus with 39 samples.

Results

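The ribosome-bound mRNA of D1-MSNs was compared between proestrus and diestrus females that had received repeated ketamine. D1-MSNs are the medium spiny neurons of the nucleus accumbens (NAc) that carry the D1 dopamine receptor. The libraries were assigned by their sample titles and are 10 of the 39 immunoprecipitation (IP) libraries of the series, 5 from proestrus and 5 from diestrus rats. Each library came from 1 adult, intact, heterozygous Drd1a-iCre (D1-Cre) female of a Long-Evans background. All 10 rats had received 6 intermittent i.p. injections of 10 mg/kg racemic ketamine, each in the assigned stage of the cycle, and tissue was taken 4 days after the last one, following 30 min in the test context without drug. All 10 also carried the Cre-dependent RiboTag virus in the NAc, which puts a hemagglutinin (HA) tag on the ribosomal protein Rpl22, and only rats whose locomotor response to ketamine had grown over the injections were used. The other groups drawn on below are 10 D1 libraries of saline-treated females, 9 D2 libraries of ketamine-treated females and 10 D2 libraries of saline-treated females, of both stages, the D2 libraries from Drd2-iCre (D2-Cre) rats with the same virus.

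The rat estrous cycle lasts a few days. Estradiol climbs to its peak in proestrus, followed by a surge of progesterone, while in diestrus estradiol is low. Both hormones act on neurons through nuclear receptors that bind DNA and through receptors at the membrane, and in the NAc estradiol is known to alter dopamine release and the spines and excitability of MSNs. Ketamine blocks NMDA-type glutamate receptors. The comparison asks whether D1-MSNs of sensitized females differ in what they translate between these hormonal states.

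No gene was called between the stages. Of 13220 genes tested, 0 (0%) passed an adjusted p under 0.1 in edgeR's quasi-likelihood test with 2 surrogate variables, and the lowest adjusted p was 0.153. At an unadjusted p under 0.05 there were 516 genes (3.9% of those tested), 272 of them higher in proestrus (2.06%) and 244 lower (1.85%). DESeq2 with the same surrogate variables called 2 genes, the collagen gene Col11a2 and ENSRNOG00000031662, a gene listed by its Ensembl identifier only. The number at an unadjusted p under 0.05 rested in part on single libraries. It was 1124 without diestrus library 20 and 790 without proestrus library 10, and between 392 and 558 when any other library was left out. Positive log2 changes throughout denote a higher level in proestrus, and levels of single genes are given as CPM, the count scaled to library size, normalized over all 39 libraries.

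The differences were small as well as few. The 95% interval of the stage difference lay within a 1.5-fold change in either direction for 84.4% of the genes, and for 99% of the 9015 genes at 10 CPM or more. It lay within a 2-fold change for 95.7% of all genes tested. The fitted difference was under 0.1 on the log2 scale for 72.6% of the genes and under 0.25 for 92%. The 9 genes (0.0681%) with a difference over 1 had a median level of 0.824 CPM, against 24.5 CPM over all genes tested. In the plot of the stage change against the level, the spread widens only towards the low end.

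**Figure D1:**
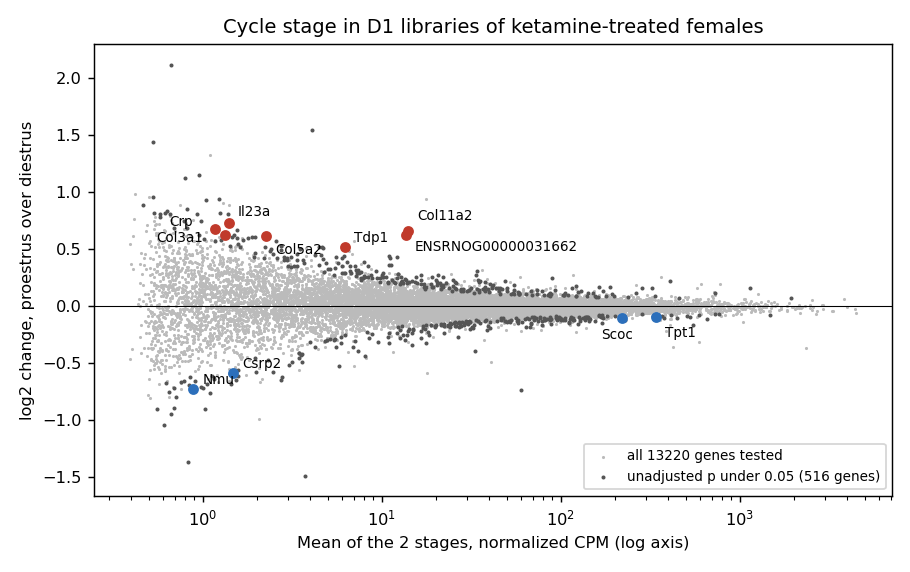
The log2 change from diestrus to proestrus (vertical axis) of the 13220 genes tested, against the mean normalized CPM of the stages (horizontal log axis), in D1 libraries of ketamine-treated females. Grey points are all genes, dark points the 516 genes at an unadjusted p under 0.05, and red or blue points named genes that are higher or lower in proestrus; 0 genes passed an adjusted p under 0.1.

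Total counts ranged from 16118050 to 20494896 in the proestrus libraries, with a median of 19269507, and from 18836806 to 23454882 in the diestrus libraries, with a median of 20191722. The stages did not separate as whole profiles. The first principal component held 25% of the variance and did not order the libraries by stage, with proestrus library 26 at -20.8 beside diestrus library 28 at -22.8, and proestrus library 34 at 24.5 beside diestrus library 36 at 17.4. Libraries of different stages correlated as closely as those of the same stage, with a median Spearman correlation across genes of 0.995 and 0.994. No columns held identical values. Among the saline D2 libraries, diestrus library 39 stood apart with a total of 2396517 counts, the other 9 having 17320637 or more. Adora2a, the adenosine receptor that marks D2-MSNs, was at 141 to 221 CPM in the 10 libraries, below all 9 D2 libraries of ketamine-treated females, which lay at 452 CPM or higher. Drd1, Pdyn, Tac1 and the other D1 markers are not analysed here by name.

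**Figure D2:**
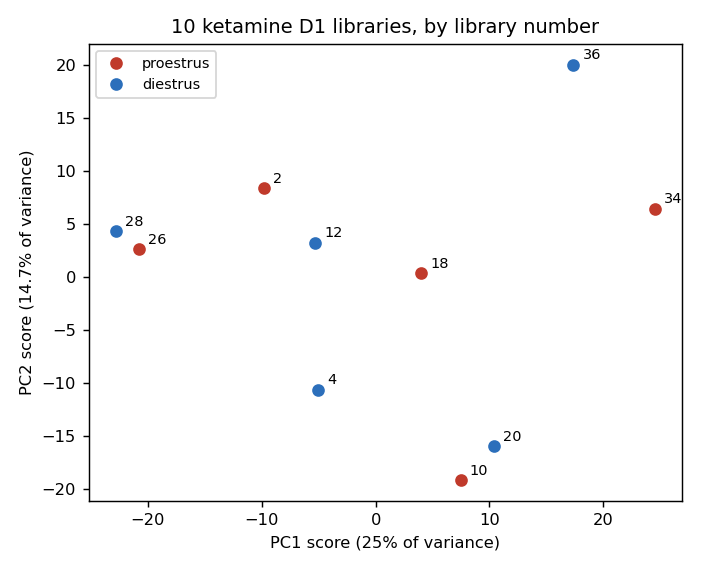
Scores of the 10 ketamine D1 libraries on the first (25% of variance) and second (14.7%) principal components, labelled by library number, red for proestrus and blue for diestrus. The stages interleave on both axes, and libraries 26 and 28, and 34 and 36, lie near each other on the first.

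The lowest p-value belonged to ENSRNOG00000031662. Its level was 16.7, 15.2, 16.7, 17.1 and 16.5 CPM in proestrus libraries 2, 10, 18, 26 and 34, and 11.8, 8.87, 9.20, 13.4 and 10.6 CPM in diestrus libraries 4, 12, 20, 28 and 36. Every proestrus library was above every diestrus library, and the proestrus libraries lay within a narrow band. Such a lack of overlap, with proestrus above, was seen in 31 genes (0.234%), and with proestrus below in 21 genes (0.159%). Random splits of 10 libraries into 5 and 5 separate fully, in 1 direction or the other, at a rate of 0.00794. Both shares together lie below that rate, so a lack of overlap was no more common than random splits would make it. The log2 change was 0.63 ± 0.10 (SE), with an adjusted p of 0.153 in edgeR. The adjusted p ranged from 0.00055 with DESeq2 to 1 in a model of all 39 libraries, where the log2 change was 0.58. Without diestrus library 28, the highest of its stage, the gene passed in edgeR, at an adjusted p of 0.0738 and a log2 change of 0.69. Leaving out any other library kept its adjusted p above the threshold, with changes down to 0.56. The gene was higher in proestrus in every other set of libraries too, by 0.60 ± 0.11 (SE) on the log2 scale in D1 libraries of saline-treated females, 0.47 ± 0.19 in D2 libraries of ketamine-treated females and 0.28 ± 0.17 in D2 libraries of saline-treated females. The last value was 0.31 ± 0.16 without the shallow diestrus library 39 and 0.10 ± 0.10 without diestrus library 7. These sets share no library with the ketamine D1 set. In saline D1 libraries edgeR did not call the gene, with an adjusted p of 0.874 over all 10 libraries. DESeq2 called it, with an adjusted p of 0.0254. With 1 library left out, edgeR called it only without proestrus libraries 1 (0.0392) or 33 (0.0726). The difference between the treatments in D1 libraries was 0.03 on the log2 scale, with an unadjusted p of 0.869.

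Col11a2, which encodes a chain of the fibrillar collagen type XI, had the lowest p-value of the 1511 tested genes with a symbol. It was at 19.0, 17.5, 17.7, 18.9 and 13.0 CPM in proestrus libraries 2, 10, 18, 26 and 34, and at 10.35, 10.5, 11.6, 8.98 and 13.0 CPM in diestrus libraries 4, 12, 20, 28 and 36. Library 34, the lowest of the proestrus libraries, fell just under library 36, the highest of diestrus, and the other 4 proestrus libraries were above all diestrus libraries. The log2 change was 0.66 ± 0.12 (SE), with a 95% interval of 0.41 to 0.91 and an adjusted p of 0.361 in edgeR. The 2-sided exact permutation test over the 5 and 5 libraries gave p = 0.0159, where 0.00794 is the smallest it can give. The adjusted p was 0.00115 with DESeq2 and reached 1 under other settings. In edgeR it was 0.00529 without library 34 and 0.0311 without library 36, with log2 changes of 0.78 and 0.82. Those libraries hold the lowest proestrus and the highest diestrus value, so leaving out either had to widen the difference. Leaving out any other library did not bring the gene under the threshold, and the lowest change among these fits was 0.57.

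The same gene went the other way in D1 libraries of saline-treated females. There it was at 9.50 ± 1.96 CPM (SD) in proestrus and 12.2 ± 1.03 in diestrus, against 17.2 ± 2.45 and 10.9 ± 1.52 after ketamine. The log2 change with stage was -0.35 ± 0.14 (SE) after saline, and the difference between the treatments was 1.03 ± 0.19, with an adjusted p of 0.111 in edgeR and 0.000698 in DESeq2. In edgeR the adjusted p fell under the threshold without ketamine libraries 34 (0.0226) or 36 (0.0367). It also did so without saline proestrus libraries 1 (0.0332) or 9 (0.0999), and in none of the other fits with 1 library left out. In D2 libraries of ketamine-treated females the stage change was -0.08 ± 0.14, and the difference between the cell types was 0.93 with an unadjusted p of 0.0122. In level, 4 of the 5 proestrus ketamine libraries lay above 13.7 CPM, the highest value of any D1 diestrus or saline library.

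Tdp1, Il23a and Crp were the only genes with a symbol whose stages did not overlap. Tdp1, a DNA repair enzyme that removes topoisomerase I adducts, was at 9.36, 6.92, 6.99, 7.21 and 6.24 CPM in proestrus libraries 2, 10, 18, 26 and 34 and at 4.38 to 5.87 CPM in diestrus, a log2 change of 0.52 ± 0.13 (SE). Library 2 was the highest and the remaining 4 proestrus libraries were close together. Il23a, a subunit of the cytokine interleukin-23, was at 2.24, 1.35, 1.75, 1.95 and 1.44 CPM in proestrus and 0.911 to 1.16 CPM in diestrus, a log2 change of 0.73 ± 0.22. Crp, the acute-phase C-reactive protein, was at 1.46, 1.35, 1.21, 1.66 and 1.44 CPM in proestrus and 0.650 to 1.11 CPM in diestrus, a log2 change of 0.68 ± 0.24. The last 2 were near the lower limit of what was tested, with 19 to 40 counts a library for Il23a and 13 to 34 for Crp. Each of the 3 had an adjusted p of 1.00 in edgeR. In D1 libraries of saline-treated females the stage changes were 0.08 ± 0.14 (SE) for Tdp1, 0.46 ± 0.25 for Il23a and 0.02 ± 0.32 for Crp. ENSRNOG00000018110 also did not overlap, at 12.4 to 15.8 CPM in proestrus and 8.68 to 12.1 CPM in diestrus, a log2 change of 0.43 ± 0.09, with -0.05 ± 0.14 after saline.

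**Figure D3:**
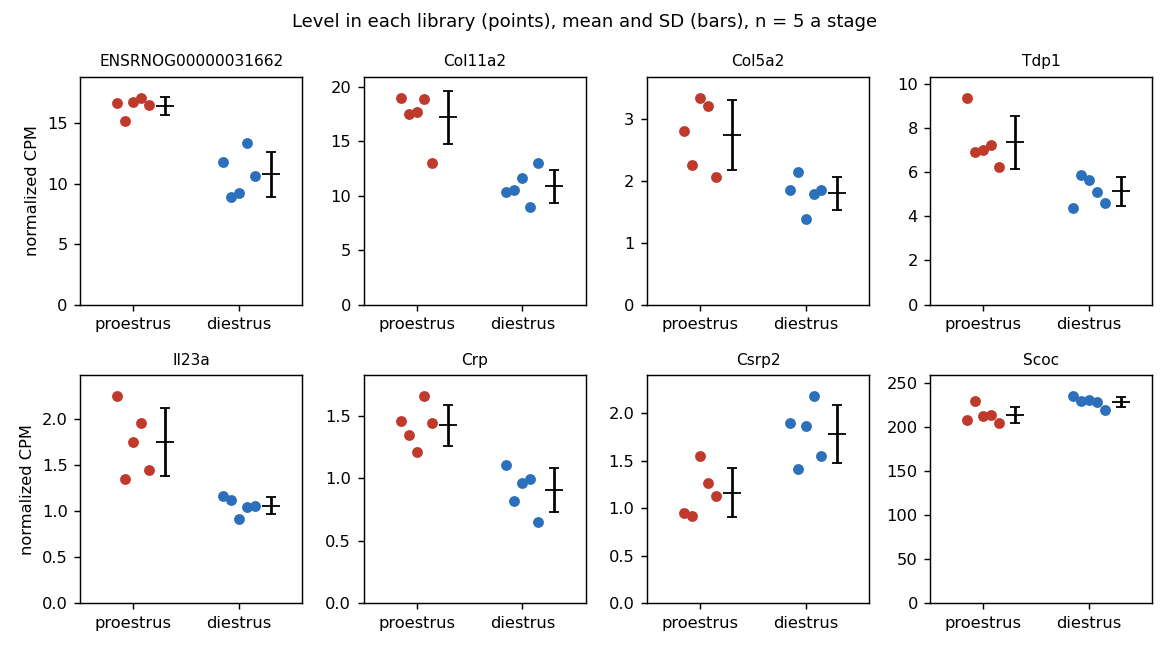
Normalized CPM of 8 genes in each of the 5 proestrus (red) and 5 diestrus (blue) D1 libraries of ketamine-treated females, with the mean and SD in black and every vertical axis starting at 0. The stages do not overlap in ENSRNOG00000031662, Tdp1, Il23a and Crp, and overlap in Col11a2, Col5a2, Csrp2 and Scoc.

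The promoters of the named genes with the lowest p or with no overlap are shown because estrogen receptors bind DNA at response elements built from the half-site GGTCA. Each is the 250 bases before the gene's start on its own strand, from RefSeq's GRCr8 assembly, which is a later build than the one used for the counts. Capitals mark the half-site on either strand (GGTCA or TGACC). The regions are chr20:4817649-4817898 (minus strand) for Col11a2, chr6:124892571-124892820 (plus) for Tdp1, chr7:1308435-1308684 (minus) for Il23a and chr13:87693812-87694061 (plus) for Crp.
Col11a2: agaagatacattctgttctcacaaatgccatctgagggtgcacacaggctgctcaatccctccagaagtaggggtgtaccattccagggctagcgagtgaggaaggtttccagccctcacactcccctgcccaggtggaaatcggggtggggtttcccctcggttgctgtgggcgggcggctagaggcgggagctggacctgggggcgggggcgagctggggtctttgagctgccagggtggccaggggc
Tdp1: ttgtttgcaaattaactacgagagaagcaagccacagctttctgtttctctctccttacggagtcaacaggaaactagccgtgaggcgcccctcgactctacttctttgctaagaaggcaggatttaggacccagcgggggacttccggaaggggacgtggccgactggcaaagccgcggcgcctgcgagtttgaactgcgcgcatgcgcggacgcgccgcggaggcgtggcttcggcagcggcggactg
Il23a: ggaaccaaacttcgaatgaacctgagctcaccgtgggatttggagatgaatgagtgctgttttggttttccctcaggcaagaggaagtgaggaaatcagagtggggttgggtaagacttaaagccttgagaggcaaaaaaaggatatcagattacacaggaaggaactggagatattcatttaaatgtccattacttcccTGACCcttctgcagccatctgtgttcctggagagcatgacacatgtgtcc
Crp: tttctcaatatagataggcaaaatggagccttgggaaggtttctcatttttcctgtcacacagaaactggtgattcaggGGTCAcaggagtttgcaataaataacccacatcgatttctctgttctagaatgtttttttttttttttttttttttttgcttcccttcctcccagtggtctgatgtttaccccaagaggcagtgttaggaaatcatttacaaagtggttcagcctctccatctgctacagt
The half-site was found 1 time each in Il23a, starting 50 bases before the start, and in Crp, 171 bases before it, and these letters were not in the windows of Col11a2 and Tdp1. Over all 33469 promoters of the table, 35.4% held it in a window of this length. The full element, the half-site and its inverted copy with 3 bases between them, was in none of the 4 and in 8 of all promoters (0.0239%).

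Among the gene lists, the collagens had the largest median difference, though several of them were scarce. Of 7 tested genes with a collagen symbol, a list made after values were seen, 6 were higher in proestrus, 3 of them at an unadjusted p under 0.05, and the median log2 change was 0.55, against 2.06% of all genes tested higher at that level and a median of 0.00. Col5a2, a chain of the fibrillar collagen type V, was at 2.80, 2.27, 3.35, 3.22 and 2.06 CPM in proestrus libraries 2, 10, 18, 26 and 34 and at 1.85, 2.14, 1.39, 1.79 and 1.85 CPM in diestrus libraries 4, 12, 20, 28 and 36, a log2 change of 0.62 ± 0.19 (SE). A single diestrus library, 12, reached into the proestrus range. Col3a1, which forms type III collagen, was at 1.07 to 2.41 CPM in proestrus and 0.645 to 1.70 CPM in diestrus, a log2 change of 0.63 ± 0.28 on 13 to 43 counts a library. Without proestrus library 2 its change was 0.38, with an unadjusted p of 0.201. Col1a1, a chain of type I collagen, was at 0.728 to 1.32 CPM and 0.479 to 0.900 CPM, with a log2 change of 0.55 ± 0.30. It had 10 to 27 counts a library, and its change is the median of the list. Col18a1, a basement membrane collagen, had a log2 change of 0.18 ± 0.10, and the type VI genes Col6a2 and Col6a1 0.17 ± 0.29 and -0.05 ± 0.32. Col6a2 had 10 to 18 counts a library and Col6a1 11 to 40. The summed level of the 7 genes was 45.9, 34.5, 39.9, 46.3 and 33.6 CPM in the proestrus libraries and 29.1, 35.3, 25.1, 30.9 and 31.6 CPM in the diestrus libraries. Diestrus library 12 was above proestrus libraries 10 and 34, so the groups overlapped.

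In D1 libraries of saline-treated females the collagen genes mostly pointed the other way, with 1 of 7 higher in proestrus, 6 lower and a median of -0.35. Col5a2 was at -0.37 ± 0.24 (SE) there, Col1a1 at -0.24 ± 0.32 and Col3a1 at -0.08 ± 0.33, while the type VI genes Col6a1 and Col6a2 were at -0.76 ± 0.31 and -0.58 ± 0.34, and Col18a1 was at 0.34 ± 0.12. The difference between the treatments had an unadjusted p under 0.05 in 3 of the 7 genes in edgeR. All 3 had the more positive stage change after ketamine, against 2.24% of all genes tested in that direction. Among them was Col5a2, with a difference of 0.90 and an adjusted p of 0.983 in edgeR. The list was made after the ketamine values were seen. The same ketamine libraries enter this difference, so the count is not independent of that choice. In D2 libraries of ketamine-treated females 3 of 8 were higher and 5 lower, with a median of -0.04. The wider list held 39 collagen, laminin and other matrix genes, of which 11 could be named and were tested. In ketamine D1 libraries 9 of these were higher in proestrus, with a median of 0.18. At an unadjusted p under 0.05 in edgeR there were 3, against 2.06% of all genes. The summed levels of glial and vascular markers overlapped between the stages after ketamine. The summed endothelial and mural markers (Flt1 and Rgs5, both tested) lay at 3.00 to 5.10 CPM in proestrus and 2.96 to 5.66 CPM in diestrus, the 4 astrocyte markers at 105 to 129 and 105 to 148 CPM, and the 2 microglial markers at 1.63 to 2.77 and 1.34 to 2.43 CPM. Kl, a choroid plexus marker that encodes the anti-aging protein klotho, was at 6.74 to 9.64 CPM in proestrus and 4.61 to 7.75 CPM in diestrus, a log2 change of 0.31 ± 0.13 (SE). Only those listed glial and vascular markers that could be named were tested. Of these 11 astrocyte, oligodendrocyte, microglial and vascular markers, 9 differed between the treatments in the direction of the collagens. At an unadjusted p under 0.05 in edgeR there were 3 of the 9, against 2.24% of all genes tested in that direction. Both tested microglial markers were higher in proestrus after ketamine (median log2 change 0.24) and lower after saline (-0.33), with a difference between the treatments of 1.06 ± 0.40 (SE) for Tmem119 (unadjusted p 0.0145). The 3 oligodendrocyte and precursor markers had a median of -0.03 after ketamine and were all lower after saline, with a median of -0.22, and the difference was 0.49 ± 0.21 for the precursor marker Pdgfra (unadjusted p 0.0311). For the astrocyte marker Gja1 it was 0.28 ± 0.13 (unadjusted p 0.0462), and each of these 3 had an adjusted p of 0.983 in edgeR. The other tested markers did not reach an unadjusted p under 0.05 in that difference, among them Aif1 at 0.16, Mog at 0.21, S100b at 0.11, Sox9 at 0.07 and Flt1 at 0.43, with Gfap at -0.05 and Rgs5 at -0.11 on the other side of 0. The part of non-neuronal cells in the collagen levels was not tested, and in such pooled RNA more cells of a type and more RNA per cell cannot be told apart.

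**Figure D4:**
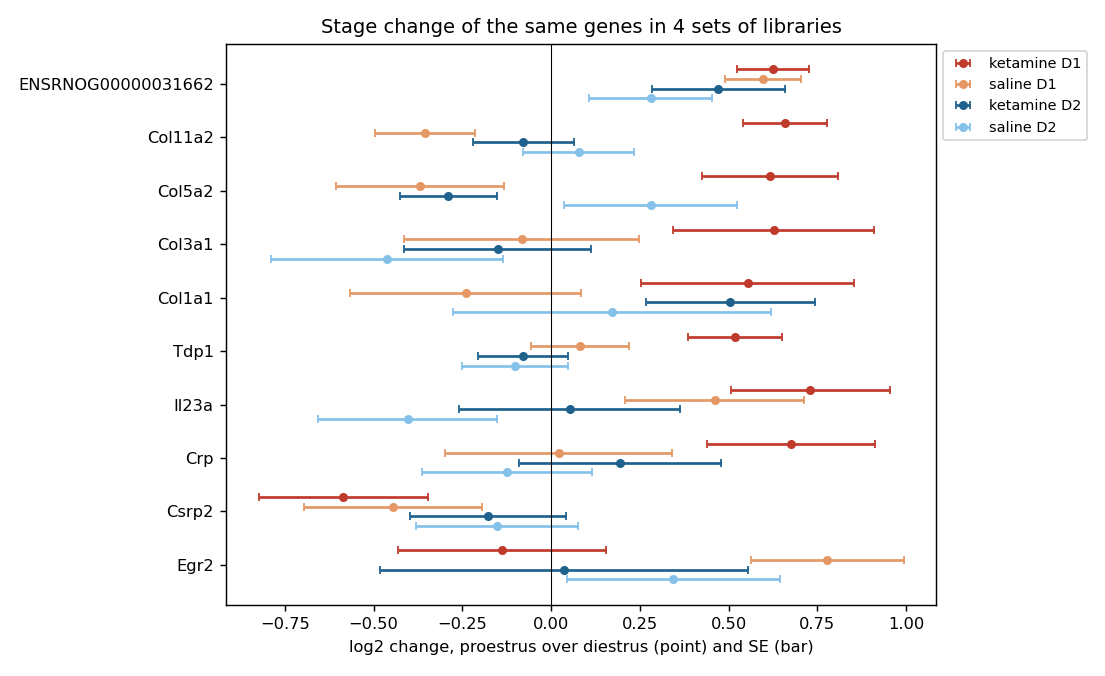
The log2 change from diestrus to proestrus (point) and its SE (bar) of 10 genes in 4 sets of libraries that share no library, D1 and D2 after ketamine and after saline. ENSRNOG00000031662 is above 0 in all 4 sets, while Col11a2 is at 0.66 in ketamine D1 and -0.35 in saline D1.

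The 10 genes with the lowest p in each direction were mostly listed by identifier only. Those higher in proestrus had log2 changes of 0.22 to 0.66, and 3 of them did not overlap. Those lower in proestrus had changes of -1.37 to -0.15, and ENSRNOG00000031032, ENSRNOG00000020288 and ENSRNOG00000050578 did not overlap, at -0.21 ± 0.06 (SE), -0.26 ± 0.07 and -0.16 ± 0.04.

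Further genes at an unadjusted p under 0.05 fell in no single family. Of the 1511 named genes tested, 51 were at this level (3.38%, against 3.97% of the unnamed), 26 higher in proestrus and 25 lower. Among the higher ones, Prodh, which starts the breakdown of proline, was at 3.97 to 6.84 CPM in proestrus and 2.98 to 4.55 CPM in diestrus, a log2 change of 0.51 ± 0.17 (SE). Lfng, an enzyme that modifies the receptor Notch, was at 2.78 to 3.74 and 1.98 to 3.38 CPM, with a change of 0.41 ± 0.18. P2rx7, a channel opened by ATP, was at 1.12 to 2.53 and 0.900 to 1.93 CPM, with a change of 0.63 ± 0.28. In all 3 the ranges of the stages overlapped.

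Of the named genes lower in proestrus, Dynlt2b, a dynein light chain, had the lowest p, at 11.5 to 18.4 CPM in proestrus and 16.7 to 19.3 CPM in diestrus, a log2 change of -0.28 ± 0.09 (SE). Scoc, a coiled-coil protein of the Golgi, was at 208, 229, 212, 214 and 205 CPM in proestrus libraries 2, 10, 18, 26 and 34 and at 235, 230, 231, 228 and 220 CPM in diestrus libraries 4, 12, 20, 28 and 36. Its log2 change was -0.10 ± 0.03, and only library 10 in proestrus came up to the diestrus values. Changes of like size were seen in Mcts1, a translation factor, at -0.14 ± 0.05, in Vps29, a subunit of the retromer that sorts membrane proteins, at -0.13 ± 0.05, and in Tpt1, an abundant growth-related protein, at -0.09 ± 0.04. Larger differences among the named genes were seen in scarce ones, in Nmu, which encodes the neuropeptide neuromedin U, at 0.516 to 1.01 CPM in proestrus and 0.527 to 1.59 CPM in diestrus (-0.73 ± 0.31), and in Csrp2, a LIM-domain protein, at 0.919 to 1.55 and 1.41 to 2.18 CPM (-0.59 ± 0.24). With 1 library left out the change of Nmu lay between -0.91 (without diestrus library 20) and -0.47 (without proestrus library 26), and 5 of 10 such fits had an unadjusted p under 0.05. The unnamed gene with the lowest p in this direction, ENSRNOG00000017962, was at 26.8 to 30.8 CPM in proestrus and 30.8 to 53.1 CPM in diestrus, a change of -0.39 ± 0.09 that was -0.24 without diestrus library 36.

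The genes of mitochondrial energy supply that could be named leaned slightly to lower levels in proestrus. Of 55 listed genes of the respiratory chain, 7 could be named and were tested. All 7 were lower, 0 of them at an unadjusted p under 0.05 in edgeR. Their median log2 change was -0.04, within the quartiles of all genes tested (-0.05 and 0.06). A wider list by symbol, made after values were seen, added further subunits and the mitochondrial ribosome. In it 17 of 19 genes were lower, 3 of them at an unadjusted p under 0.05, and the median was -0.07, against 1.85% of all genes tested at that level and a median of 0.00. Those 3 were Ndufb4 of complex I at -0.11 ± 0.05 (SE), Atp5pf of the ATP synthase at -0.10 ± 0.04 and Mrpl55 of the mitochondrial ribosome at -0.17 ± 0.08. None of the 3 kept that level with every library left out in turn, and Mrpl55 was at -0.11 without diestrus library 4. The summed level of the 19 genes was 3683, 3786, 3739, 3787 and 3514 CPM in proestrus libraries 2, 10, 18, 26 and 34 and 4025, 3889, 3716, 3949 and 3519 CPM in diestrus libraries 4, 12, 20, 28 and 36. Diestrus libraries 4, 12 and 28 were above all proestrus libraries, and libraries 20 and 36 were not. In D2 libraries 18 of the same 19 genes were lower in proestrus after ketamine, with a median of -0.06. After saline 18 of 19 were lower, with a median of -0.07 both with and without the shallow library 39. Without proestrus library 21 or diestrus library 31, 16 of 19 were lower after saline, with a median of -0.04. In D1 libraries of saline-treated females 15 of 19 were higher instead, with a median of 0.03. Of the 5 tested proteasome genes 4 were lower, with Psmb1, a subunit of the core, at -0.09 ± 0.04, and of the 6 tested cytoplasmic ribosomal protein genes 5 were lower, with a median of -0.05.

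Genes of steroid action and synthesis gave no difference at an unadjusted p under 0.05. The estrogen and progesterone receptor genes Esr1, Esr2 and Pgr are not analysed here by name. The membrane estrogen receptor Gper1 had 0 to 7 counts a library and was too low to test. Esrrg, an orphan receptor related to the estrogen receptors, had a log2 change of 0.00 ± 0.19 (SE). Among genes known to work with or respond to estrogen, Cited1 was at 0.09 ± 0.14 and Nrip1, a corepressor of nuclear receptors, at -0.06 ± 0.06. Cyp19a1, the aromatase that makes estradiol, was at 2.86, 4.29, 3.01, 2.10 and 3.35 CPM in proestrus libraries 2, 10, 18, 26 and 34 and at 2.53, 2.23, 1.63, 3.03 and 3.30 CPM in diestrus libraries 4, 12, 20, 28 and 36. The ranges overlapped, and the change was 0.27 ± 0.22. Hsd17b7, Hsd17b10 and Srd5a3, further enzymes of steroid metabolism, were at -0.08 ± 0.20, -0.05 ± 0.07 and -0.03 ± 0.09.

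Of the NMDA receptor genes only Grin2c could be looked up, at 9.74 to 13.1 CPM in proestrus and 9.95 to 12.6 CPM in diestrus, a log2 change of 0.04 ± 0.10 (SE). Of the 8 tested GABA receptor genes 4 were higher and 4 lower, with a median of 0.01. Gabbr1, a subunit of the metabotropic receptor, was at -0.01 ± 0.03, with a 95% interval of -0.09 to 0.06. The 5 tested dopamine signaling genes were all slightly lower in proestrus, 0 at an unadjusted p under 0.05 in edgeR, with a median of -0.05. They included Adcy5, the main adenylyl cyclase of MSNs, at -0.04 ± 0.05, and Rgs9, which shortens G protein signals, at -0.03 ± 0.10. Gad1, which makes GABA, was at 1133 ± 23.1 CPM (SD) in proestrus and 1117 ± 48.3 CPM in diestrus. The kainate receptor gene Grik1 was at 17.6 to 26.0 CPM in proestrus and 13.8 to 20.9 CPM in diestrus, with a log2 change of 0.26 ± 0.10 (SE) and an adjusted p of 1.00 in edgeR. Its relative Grik2 was at -0.01 ± 0.05. The interneuron markers Sst and Nos1 varied widely between rats of 1 stage, Sst from 300 to 540 CPM in proestrus and from 223 to 662 CPM in diestrus.

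Immediate early genes and other genes induced by activity mark recent neuronal activity, here after the return to the drug context. Of 63 such genes listed together, 10 could be named and 9 were tested. In proestrus 5 of these were higher and 4 lower, with a median log2 change of 0.02. At an unadjusted p under 0.05 in edgeR 1 was higher, against 2.06% of all genes. In D1 libraries of saline-treated females 6 of the 9 were higher, 3 of them at that level, against 1.9% of all genes, with a median of 0.12. Btg2, which restrains proliferation, was at 10.1, 5.33, 5.34, 10.4 and 5.72 CPM in proestrus libraries 2, 10, 18, 26 and 34 and at 5.44, 5.35, 4.79, 9.87 and 4.45 CPM in diestrus libraries 4, 12, 20, 28 and 36. High values were found in both stages, in libraries 2, 26 and 28. The fitted change was 0.35 ± 0.14 (SE), with an unadjusted p of 0.0234, while the exact permutation test of the levels gave p = 0.222 (2-sided). Without any 1 of libraries 2, 12, 34 and 36 the unadjusted p of the fit was 0.0602 to 0.098. Egr2, a transcription factor, was at 10.1 to 22.6 CPM in proestrus and 10.1 to 27.8 CPM in diestrus, a change of -0.14 ± 0.29. In D1 libraries of saline-treated females Egr2 was at 0.78 ± 0.22, called by DESeq2 with an adjusted p of 0.0472 and not by edgeR, and the difference between the treatments was -0.87, with an adjusted p of 0.983. Sik1, a kinase induced by cAMP, was at 0.02 ± 0.18 after ketamine and 0.40 ± 0.12 after saline, and Rgs2, a regulator of G protein signals, at -0.09 ± 0.06 and 0.17 ± 0.07. Nptx2 and Vgf, which encode secreted proteins induced by activity, were at 0.08 ± 0.07 and 0.05 ± 0.07. Fos, Fosb, Arc, Egr1 and Npas4 are not analysed here by name.

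**Figure D5:**
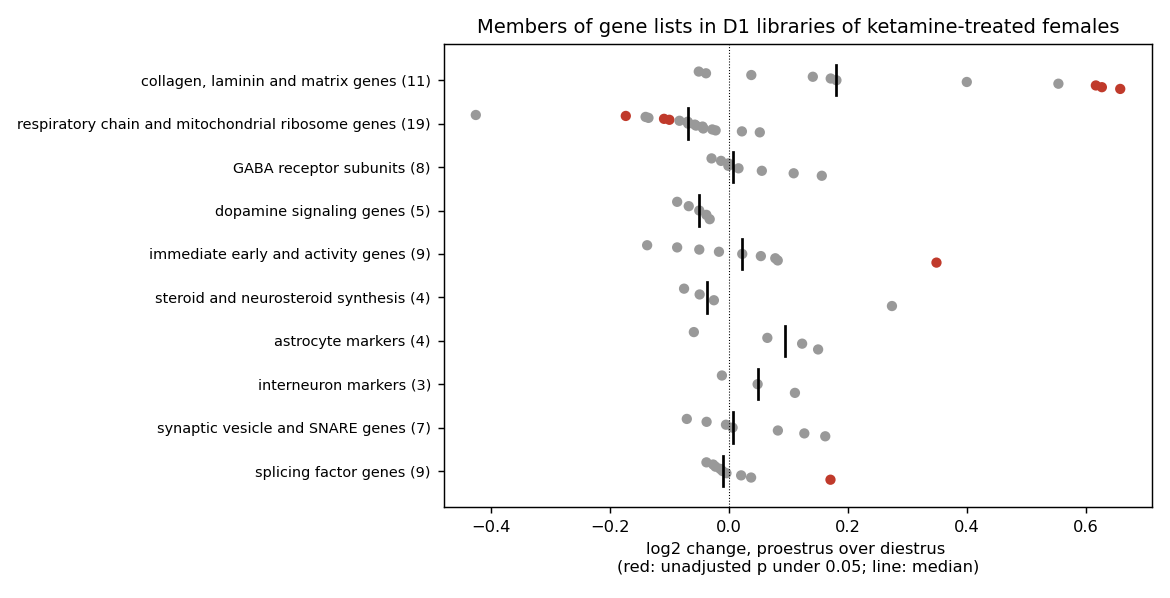
The log2 change from diestrus to proestrus of each tested member (point) of 10 gene lists in D1 libraries of ketamine-treated females, with the number of members in brackets and the median as a black line. Red points are at an unadjusted p under 0.05, of which 3 are in the collagen, laminin and matrix list at changes of 0.62 to 0.66 and 3 in the mitochondrial list at -0.17 to -0.10.

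The stage difference was set against that of saline-treated D1 and ketamine-treated D2 libraries by interaction tests in edgeR. Between ketamine and saline in D1 libraries 0 of 13593 genes (0%) passed an adjusted p under 0.1, 659 (4.85%) were at an unadjusted p under 0.05, and DESeq2 called 6. The lowest adjusted p, 0.111, was shared by Col11a2 and ENSRNOG00000010706, a gene singled out after its values were seen. DESeq2 called both, the latter with an adjusted p of 0.00421. In edgeR the latter passed without saline libraries 33 (0.0861) or 35 (0.0937). ENSRNOG00000010706 was at 16.9 ± 1.67 CPM (SD) in proestrus and 19.6 ± 2.85 in diestrus after ketamine, and at 20.1 ± 1.95 and 17.2 ± 2.02 after saline. Between D1 and D2 libraries of ketamine-treated females 0 of 13850 genes passed, 530 (3.83%) were at an unadjusted p under 0.05, and DESeq2 called 4. With 1 library left out that count of 530 ran from 403 to 1088, the highest without D2 proestrus library 6. Of the genes named here, Col5a2 had the lowest p in that test, with a difference of 1.07 on the log2 scale and an adjusted p of 0.776, and 0.082 without D2 proestrus library 6. Within D1 libraries of saline-treated females, 0 of 13183 genes were called between the stages, with 522 (3.96%) at an unadjusted p under 0.05 and 2 called by DESeq2. In D2 libraries of ketamine-treated females 0 of 13595 genes were called, with 469 (3.45%) at an unadjusted p under 0.05 and 4 called by DESeq2. The 469 became 308 to 1988 with 1 library left out, the highest again without D2 proestrus library 6.

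Across genes, the stage changes of the ketamine D1 set were weakly correlated with those of the other sets, which share no library with it. The Spearman correlation across genes was -0.118 with saline D1 over 13074 genes, 0.0935 with ketamine D2 over 13167 and 0.142 with saline D2 over 13093. Genes are not independent replicates, and the libraries of a set share their surrogate variables. Of the genes at an unadjusted p under 0.05 in ketamine D1, 36.6% had the same direction in saline D1, 59.3% in ketamine D2 and 58.8% in saline D2, against 43.8%, 55.1% and 56.4% of all genes shared by the fits. Genes at that level in both fits were few, with 7 in the same and 13 in the opposite direction for saline D1, 13 and 11 for ketamine D2, and 15 and 3 for saline D2. Without the shallow library 39 the correlation with saline D2 was 0.118 and the shares 58.5% and 55.5%. With 1 saline D2 library left out the correlation ran from 0.0881 (without proestrus library 21) to 0.178 (without proestrus library 29). Without diestrus library 31 the order of the shares was reversed, at 52.8% and 54%.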

How the data were processed

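The authors trimmed reads with fastp 0.23.4, quantified them with Salmon 1.10.2 and summed transcripts per gene with tximport (mRatBN7.2, Ensembl). The deposited table holds expected counts for 23978 genes, already whole numbers and without normalization. Each library is 1 rat.

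Low genes were removed with filterByExpr (minimum count 10), libraries were scaled by TMM, 2 surrogate variables came from svaseq, and stage was tested by the robust quasi-likelihood method of edgeR 4.0.16 (R 4.3.3, sva 3.50.0), adjusting by Benjamini-Hochberg at 0.1. DESeq2 1.42.0 was an alternative. The stage test used the 10 ketamine D1 libraries, and the interactions 20 D1 or 19 ketamine libraries. Steps were tested on simulated data. Permutation tests were exact and 2-sided, on log2(CPM + 0.01).

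Symbols came for 1966 identifiers from identifier columns of the study's result tables, so named genes are no random sample. Counts of list members cover only the listed genes that could be named and tested. The rule named the 10 lowest p in each direction, listed genes at an unadjusted p under 0.05 and fixed genes. Other genes were picked after their values were seen. The comparison and the gene lists were proposed, and their members chosen, with earlier results of these data known. The saline D2 fit, with each of its libraries left out, was added after seeing the data. Alternatives were other numbers of surrogate variables, scaling, filters, thresholds, blocks of 8 library numbers, models of 39 or 20 libraries, and each library left out. Some single-gene results are not reported here.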

Additional observations from a re-analysis of the deposited data

Results flagged for a closer look

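Of 126 groups of 5 libraries checked, 1 for each gene and stage, 11 held a library set apart from the other 4 by Dixon's criterion, which chance alone meets in about 1 group in 20. Among the proestrus libraries, Col11a2 was low in library 34, at 13.0 CPM against 17.5 CPM in the next. Library 2 was high in Nmu, at 1.01 CPM against 0.613 CPM, and in Grm4, a metabotropic glutamate receptor, at 98.7 CPM against 91.0 CPM. Library 26 was high in Col6a1, at 1.95 CPM against 0.971 CPM, and low in Pdgfra, at 4.29 CPM against 4.90 CPM. Among the diestrus libraries, library 28 was high in Btg2, at 9.87 CPM against 5.44 CPM, and in Hsd17b7, at 3.17 CPM against 2.25 CPM. Library 12 was high in P2rx7, at 1.93 CPM against 1.05 CPM, and in Vps29, at 164 CPM against 148 CPM. Library 20 was high in Esrrg, at 26.9 CPM against 14.5 CPM. Library 36 was high in ENSRNOG00000017962, at 53.1 CPM against 36.9 CPM, and its log2 change with stage was -0.24 without that library against -0.39 with it.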

How the results depend on the processing

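The count of genes called between the stages after ketamine in D1 libraries was 0 in edgeR with no or 1 surrogate variable, the num.sv number, DESeq2 size factors, library-number blocks, the models of 39 or 20 libraries and a threshold of 0.05. It was 2 with DESeq2, with or without surrogate variables, 3 with no filter and 1 with 10 counts in every library. Leaving out 1 library gave 0 to 1, with 1 gene each without diestrus libraries 20, 28 and 36 and proestrus library 34. With DESeq2 the other counts were 6 for stage by treatment, 4 for stage by cell type, 2 for the saline D1 and 4 for the ketamine D2 stage effect. Leaving out 1 library gave 0 to 4 genes for stage by treatment, 0 to 7 for stage by cell type, 0 to 14 for saline D1 and 0 to 1 for ketamine D2, the highest without proestrus libraries 33 (saline D1 and stage by treatment) and 6 (stage by cell type) and diestrus library 32. The 516 genes at an unadjusted p under 0.05 became 293 with no surrogate variable, 281 with DESeq2 and none, and 343 in the model of 39 libraries. No gene with an unadjusted p under 0.05 in the text changed its direction under these settings. The cause of the differences was not tested. Genes near 1 CPM rest on few counts, so their intervals are wide. The labels pair no libraries, since the groups share no number. The blocks of 8 consecutive library numbers each hold 1 library of either stage, and that blocked fit, the only paired analysis run, called 0 genes with 439 at an unadjusted p under 0.05.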
